A study of Mus musculus with 24 samples.

Results

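The difference between night and day in the retina of control mice was measured on 6 of the 24 arrays of the series, namely 3 pools of retinas collected at ZT20 and 3 collected at ZT6. ZT is zeitgeber time, the hours since the lights came on. Light and darkness lasted 12 h each, so ZT6 lies in the light phase and ZT20 in the dark phase. Each pool held 6 retinas of C57BL/6J mice of both sexes, 2 months old. The labels do not say how many mice of each sex a pool held, and p-values here measure the spread between pools rather than between mice. The controls carried floxed alleles of Neurod1, a transcription factor gene of photoreceptors, and no Cre. They are therefore mice with an intact but floxed gene rather than wild-type mice. The cKO retinas set beside them carried the same floxed alleles and Cre under the Crx promoter, which is active in photoreceptors and pinealocytes. The 6 control pineal pools used for comparison came from the same genotype as the control retinas, with 6 glands in each pool, at the same times. ZT20 tissue was taken under dim red light, so time of day and lighting cannot be told apart. Of 18193 genes with a named probe set on the array, 11693 were tested in the retina, and all of them enter the comparison below.

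The mammalian retina holds its own circadian clock. In it, CLOCK and ARNTL (BMAL1) activate genes through E-box elements, the PER, CRY and CIART proteins repress that activation, and NR1D and ROR receptors act on Arntl and Nfil3 through RORE elements. Dopamine is the retina's light and day signal and melatonin its dark signal, and cAMP in photoreceptors lies downstream of both. C57BL/6J mice are known to make very little melatonin. Photoreceptors are also in darkness at night, when their channels stay open and their demand for ATP is high.

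Signals below are intensities in array units after quantile normalisation over the 12 retina arrays, given per pool in the order pool 1, 2 and 3. A difference is the ZT20 mean minus the ZT6 mean on the log2(signal + 16) scale, with its standard error (SE), and a gene was called when its adjusted p-value was under 0.05 in limma. Before normalisation the median signal of the 6 arrays ran from 107.8 to 137.7. Arrays of ZT20 correlated with one another at r = 0.981 to 0.990 across probe sets and those of ZT6 at 0.972 to 0.982, against 0.971 to 0.983 between the times. Markers of the main retinal cells were high in all 6 pools. The rod gene Gnat1 lay between 13076 and 13746, Arr3 of cones between 4897 and 6248, Glul of Mueller glia between 9290 and 10178 and Prkca of bipolar cells between 4560 and 5326. The pineal enzyme gene Aanat stayed at 33.7 to 59.6, below the array median. Expression of Neurod1 was 6874, 6977 and 6139 at ZT6 and 7370, 7135 and 7510 at ZT20, against 658.6, 581.0 and 275.3 and then 332.4, 3672 and 3341 in the cKO pools. The library labelled cKO ZT20 pool 2 and that labelled cKO ZT20 pool 3 thus stood apart from the other cKO pools.

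Some features that can vary with dissection, sex or RNA quality varied between the pools. All 18 tested genes of the lens list, which holds crystallins and lens membrane proteins, had lower means at ZT20, with a median difference of -1.21, and none was called. Their summed signal was 116527, 64542 and 127266 at ZT6 and 100458, 42458 and 39233 at ZT20, and no lens marker was at 0 in any pool. The summed signal of the pigment cell list was 18357, 18266 and 26788 at ZT6 and 28117, 20855 and 19420 at ZT20. Tyrp1, a gene of pigment cells, was 321, 319.6 and 2541 against 1424, 290.2 and 385.9, so the times overlapped. The median difference of that list was 0.14, or 0.45 without ZT6 pool 3. The Y-linked gene Eif2s3y was called lower at ZT20, with 6304, 5851 and 5049 against 3466, 1755 and 3097 (difference -1.10 ± 0.23 SE, adjusted p = 0.042), and Kdm5d, also Y-linked, had 607.7, 724.4 and 874.6 against 264.1, 199.0 and 393.0 without passing. In both genes all ZT20 pools lay below all ZT6 pools. Uty, also Y-linked, had 206.8, 201.4 and 166.1 against 144.1, 57.45 and 190.5, which overlapped. The X-linked Xist spanned 4590 to 5469 at ZT6 and 4948 to 6042 at ZT20. The ratio of the 3' to the 5' control probe sets of Actb, a sign of RNA length, was 1.22, 1.5 and 1.49 at ZT6 and 1.79, 1.69 and 1.48 at ZT20 on the log2 scale, so the times overlapped. That of Gapdh was 0.43, 0.48 and 0.52 against 0.42, 0.49 and 0.26. The part of lens tissue, of pigment cells, of the sexes in a pool or of RNA length in the results below was not tested.

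Few genes of the control retina were called between night and day, and their differences were modest. Of the 11693 genes, 146 were called (1.25%), 82 of them higher at ZT20 (0.701%) and 64 lower (0.547%). An unadjusted p under 0.05 in limma was reached by 2028 genes. Calls from 3 against 3 pools do not count all genes that change. The median size of their difference was 0.56 on the log2 scale, 9 rose and 10 fell at least 2-fold, and the median over all genes tested was 0.01. The 3 ZT20 pools lay wholly above or wholly below the 3 ZT6 pools for all 146 called genes, as they did for 20.9% of all genes tested. Called genes were brighter than most, with a median signal of 1607 against 997 over all genes tested. A further tested probe set existed for 75 of the called genes, 122 sets in all, of which 115 had the same sign and 73 also an unadjusted p under 0.05. Only the set of Pogz had an opposite sign with such a p. The sign of all 146 differences was the same in each of the 21 other settings that tested the gene, but the number of calls moved widely. It was 16 on the values as deposited, with 12 higher and 4 lower and a shift of 0.10 in the median of all genes, and 93 after median centring, with 68 higher and 25 lower. Without ZT6 pool 1 it was 18, without ZT6 pool 2 it was 28 and without ZT6 pool 3 it was 181. Without ZT20 pool 1 it was 19, without ZT20 pool 2 it was 44 and without ZT20 pool 3 it was 25. Passing all 6 of these fits were 15 genes, among them Irf7, Drd4, Aqp1, Aqp4, Impg1, Sik2, Ier3, Rpn1, Crh, Ciart, Dio2, Glmn, Zfp560 and Fastkd2, and 37 called genes passed in none of them.

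**Figure D1:**
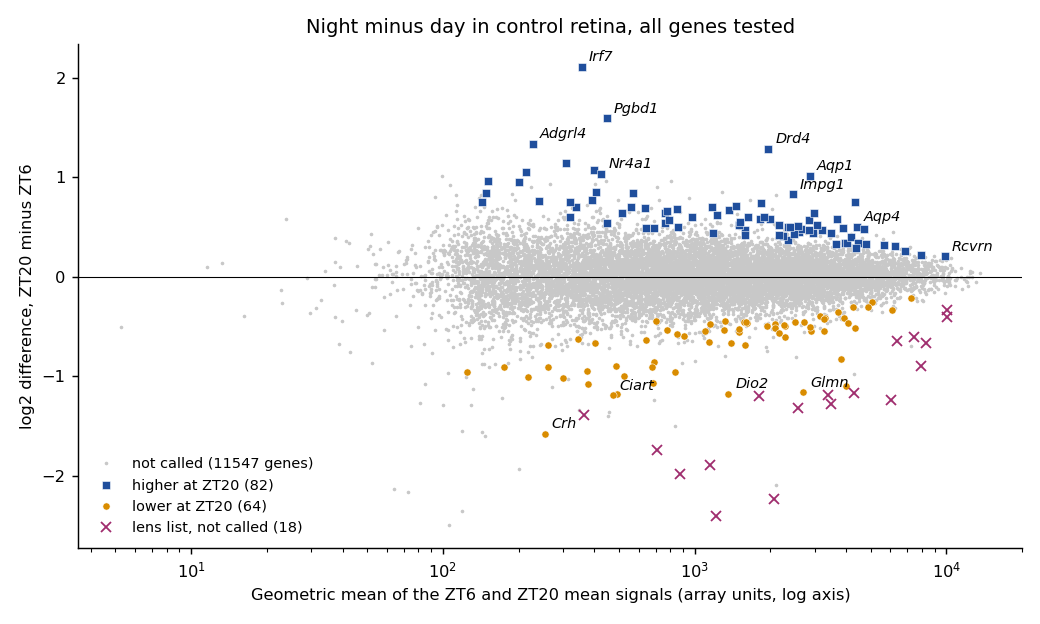
Each point is one of 11693 genes in control retina, by its level (geometric mean of the ZT6 and ZT20 mean signals, array units, log axis) and its log2 difference, ZT20 minus ZT6. The 82 called rises and 64 called falls are mostly within 1 log2 unit of 0 and spread over the range of levels. The 18 lens genes (crosses) lie below 0, from -2.4 to -0.33, without being called.

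The largest rise at night was that of Irf7, the interferon regulatory factor that drives type I interferon production. Its signal was 198.6, 123.3 and 176.3 at ZT6 and 922.9, 642.0 and 735.1 at ZT20, that is 166 ± 38.7 against 767 ± 143 (SD, n = 3). All night pools lay far above all day pools, and the difference was 2.11 ± 0.24 SE (adjusted p = 0.0015). Pgbd1, a gene derived from a piggyBac transposase, followed with 198.5, 315.3 and 246.3 against 906.4, 721.1 and 744.3 (difference 1.60 ± 0.24, adjusted p = 0.0081). Its call was lost without ZT6 pool 1 or without ZT20 pool 1, at adjusted p-values of up to 0.054. Aqp1, a water channel gene, rose with little spread, from 1983, 1928 and 2111 to 4252, 3875 and 4136 (difference 1.02 ± 0.09, adjusted p = 2.0e-04). Impg1, which encodes a proteoglycan of the matrix around photoreceptor outer segments, rose from 1668, 1768 and 2084 to 3341, 3374 and 3096 (0.83 ± 0.11, adjusted p = 0.0047), and its further probe set gave 0.64. In both genes the pools of each time lay close together and far from those of the other time.

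The others of the 15 largest rises differ in what they encode. Adgrl4, an adhesion receptor gene of endothelium, rose by 1.34, Abcb1a, the efflux pump of the blood-retina barrier, by 1.07 and Abcc9, the regulatory subunit of a potassium channel found in pericytes, by 0.96. Fn1, which encodes fibronectin, rose by 0.84 and Adamts1, a secreted metalloproteinase, by 0.77. The fibronectin gene is split by probe set, since its further set showed 0.00. Ptpn20, a tyrosine phosphatase, rose by 1.14, Prr11 by 0.96, Racgap1, a GTPase-activating protein of cytokinesis, by 0.85 and Grm2, a metabotropic glutamate receptor, by 0.85. These 9 genes had adjusted p-values of 0.023 to 0.042. None of them passed in more than 2 of the 6 fits that left out a control pool, where adjusted p-values reached 0.083 to 0.14. Of 10 tested genes of endothelium and mural cells none was called, beside 1.25% of all genes tested. A positive sign was found in 8, beside 52.1% of all genes tested. The median of the 10 was 0.18. That median was 0.52 without ZT6 pool 3 and 0.12 without ZT6 pool 2. Vwf came nearest, with 69.2, 61.2 and 93.4 against 151.6, 145.0 and 166.1 (adjusted p = 0.051). Their summed signal was 7547, 7593 and 10897 at ZT6 and 10193, 9526 and 9217 at ZT20, so the times overlapped, and no marker was at 0. In pooled tissue, more cells of a type and more RNA per cell cannot be told apart, and the part of vessel content in these rises was not tested.

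Among called genes, the largest fall at night was that of Crh, the neuropeptide gene for corticotropin-releasing hormone. Its signal was 387.5, 494.8 and 476.8 at ZT6 and 122.6, 173.9 and 129.7 at ZT20 (453 ± 57.5 against 142 ± 27.8, SD, n = 3). All night pools lay far below all day pools, and the difference was -1.58 ± 0.20 (adjusted p = 0.0024). Glmn, which encodes glomulin, an inhibitor of cullin-RING ubiquitin ligases, had the lowest adjusted p of all genes, 8.4e-05. It fell from 4345, 4083 and 3667 to 1684, 1921 and 1778, a difference of -1.16 ± 0.09. Zfp560, a zinc finger gene, fell from 923.8, 877.6 and 986.5 to 480.7, 464.1 and 524.6 (-0.90 ± 0.12, adjusted p = 0.0031). Fastkd2, a mitochondrial RNA-binding protein gene, fell from 1704, 1802 and 1764 to 1143, 1095 and 1072 (-0.66 ± 0.09, adjusted p = 0.0031). Further probe sets gave -0.375 for Zfp560 and -0.53 and -0.50 for Fastkd2. Stxbp2, a Munc18 gene of exocytosis, fell by 0.85, and its further probe sets gave -0.57 and -0.86. Its call was lost without ZT6 pool 1 (adjusted p = 0.052).

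Among the other large falls were a chemokine gene, Ccl9, by 1.07, a collagen gene, Col19a1, by 0.90, and Ucma, a cartilage matrix gene, by 1.00. Dleu7 fell by 1.07, Spata24 by 1.01, Taf4b, a subunit gene of the general transcription factor TFIID, by 0.90, Pdzph1 by 0.82 and Rab39, a small GTPase, by 0.67. Further probe sets of Col19a1 gave -1.04 and -1.42, and that of Taf4b gave -1.07. These 8 genes had adjusted p-values of 0.012 to 0.044 and passed in at most 2 of the 6 fits that left out a control pool, with adjusted p-values of up to 0.065 to 0.16. Spata24 and Pdzph1 passed in none of the 6.

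**Figure D2:**
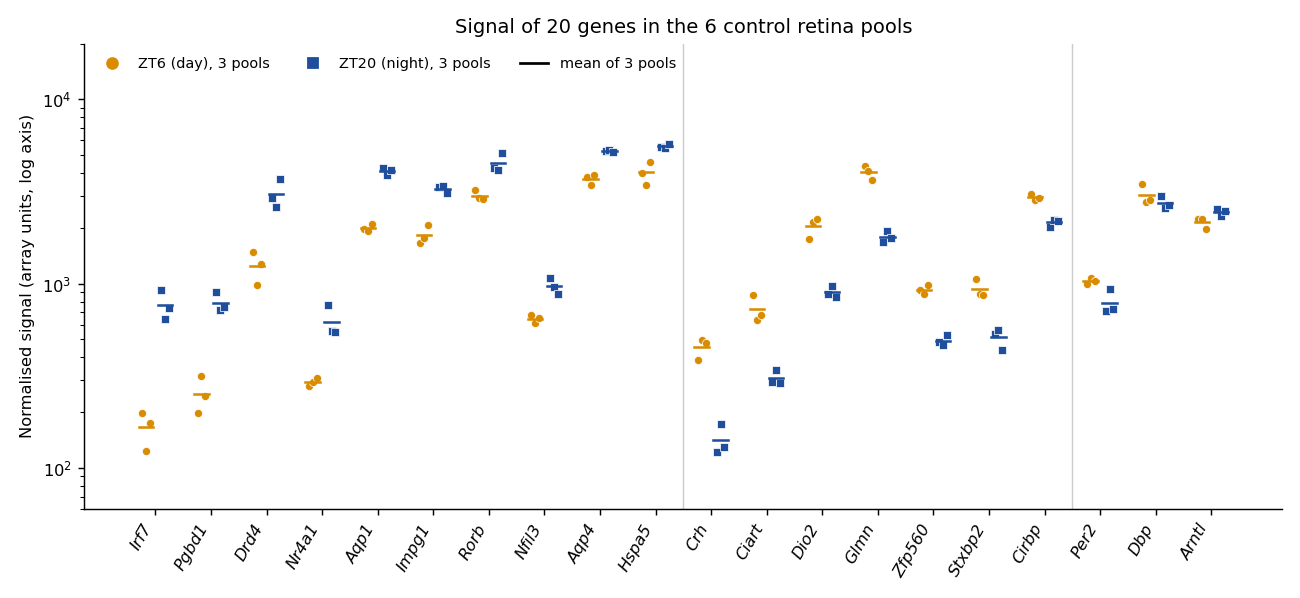
Normalised signal (array units, log axis) of 20 genes in the 3 ZT6 pools (circles) and the 3 ZT20 pools (squares) of control retina, with the mean of each group as a line; the first 10 genes were called higher, the next 7 lower and the last 3 not called. For the 17 called genes no square overlaps a circle, while for Dbp the groups interleave and for Per2 and Arntl they are close.

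Ciart, Nfil3 and Rorb were the clock genes that were called. Of 28 tested genes in 3 clock lists, 2 rose and 1 fell, beside 1.25% called over all genes. The repressor list (11 tested, 1 higher and 1 lower) had a median of -0.08, the activator list (6 tested, 1 higher) 0.17 and the output list (11 tested, 0 called) 0.00, beside 0.01 over all genes. Ciart, which encodes a repressor of the CLOCK and ARNTL complex, fell from 866.5, 632.7 and 679.2 to 294.4, 338.2 and 290.0 (-1.19 ± 0.15, adjusted p = 0.0028). It passed in all 6 fits that left out a control pool but not on the values as deposited (adjusted p = 0.067). Nfil3, a repressor of D-box genes, rose from 676.8, 610.3 and 654.8 to 1071, 958.3 and 881.6 (0.57 ± 0.11, adjusted p = 0.032). Without any single control pool other than ZT6 pool 3 its adjusted p lay between 0.078 and 0.13. Rorb, the ROR receptor gene of photoreceptors and other retinal neurons, rose from 3210, 2915 and 2873 to 4262, 4131 and 5124 (0.58 ± 0.10, adjusted p = 0.016), and its further probe sets gave 0.66 and 1.00. Its call was lost without ZT6 pool 2, ZT20 pool 1 or ZT20 pool 3 (adjusted p up to 0.078).

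Promoters of Ciart and Nfil3 are shown because they are the called clock genes whose 250 bases before the RefSeq start (GRCm38.p6) hold a motif of the list searched. Capitals mark 3 copies of the E-box CACGTG in Ciart, beginning 116, 58 and 44 bases before the start, and 1 RORE core in Nfil3, TAGGTCA on the opposite strand, beginning 12 bases before it. Ciart lies at chr3:95882229-95882478 and Nfil3 at chr13:52981040-52981289, both on the minus strand and written 5′ to 3′ along the gene.
Ciart: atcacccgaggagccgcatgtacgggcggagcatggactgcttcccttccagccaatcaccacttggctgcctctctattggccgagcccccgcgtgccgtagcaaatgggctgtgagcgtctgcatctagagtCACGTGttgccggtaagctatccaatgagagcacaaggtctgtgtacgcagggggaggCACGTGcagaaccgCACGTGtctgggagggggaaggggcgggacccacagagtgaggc
Nfil3: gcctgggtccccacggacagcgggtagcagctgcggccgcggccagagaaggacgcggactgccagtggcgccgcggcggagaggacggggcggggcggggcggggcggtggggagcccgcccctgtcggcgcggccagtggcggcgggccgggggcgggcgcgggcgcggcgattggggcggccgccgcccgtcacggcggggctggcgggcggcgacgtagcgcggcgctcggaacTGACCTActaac
No promoter of Rorb held one of these motifs in this window.

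The other members of the core loop did not pass. Per1 was 626.1, 554.6 and 580.4 at ZT6 and 590.7, 505.8 and 643.9 at ZT20 (-0.02), Per3 differed by -0.07, Cry1 by -0.09 and Cry2 by -0.07. Per2 was 993.3, 1075 and 1035 against 711.4, 931.6 and 726.0, with no overlap (-0.39 ± 0.14, adjusted p = 0.16). Nr1d1, the REV-ERB repressor, was 2282, 1748 and 1865 against 2349, 2163 and 1997, with overlapping pools (0.15), and Nr1d2 differed by -0.12, Bhlhe40 by -0.08 and Bhlhe41 by -0.21. Among activators Arntl was 2247, 2242 and 1992 against 2536, 2328 and 2476, which did not overlap (0.18 ± 0.08, adjusted p = 0.27). Clock differed by 0.05, Npas2 by 0.36, Arntl2 by -0.05 and Rora by 0.15. No output gene passed. Dbp was 3494, 2779 and 2834 against 2996, 2573 and 2668 (-0.14), Tef differed by 0.00, Hlf by -0.04, Usp2 by 0.09, Nampt by -0.03 and Tsc22d3 by 0.12. Wee1 showed -0.44, Tspan4 -0.33, Lonrf3 0.27, Leo1 0.40 and Pik3r1 0.22. Of the clock's kinases and ligases 9 were tested and 0 called in limma, Gsk3b with 0.12 and Fbxw11 with 0.09 among them. A p-value over the threshold at 2 times does not show that a gene has no daily rhythm.

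**Figure D3:**
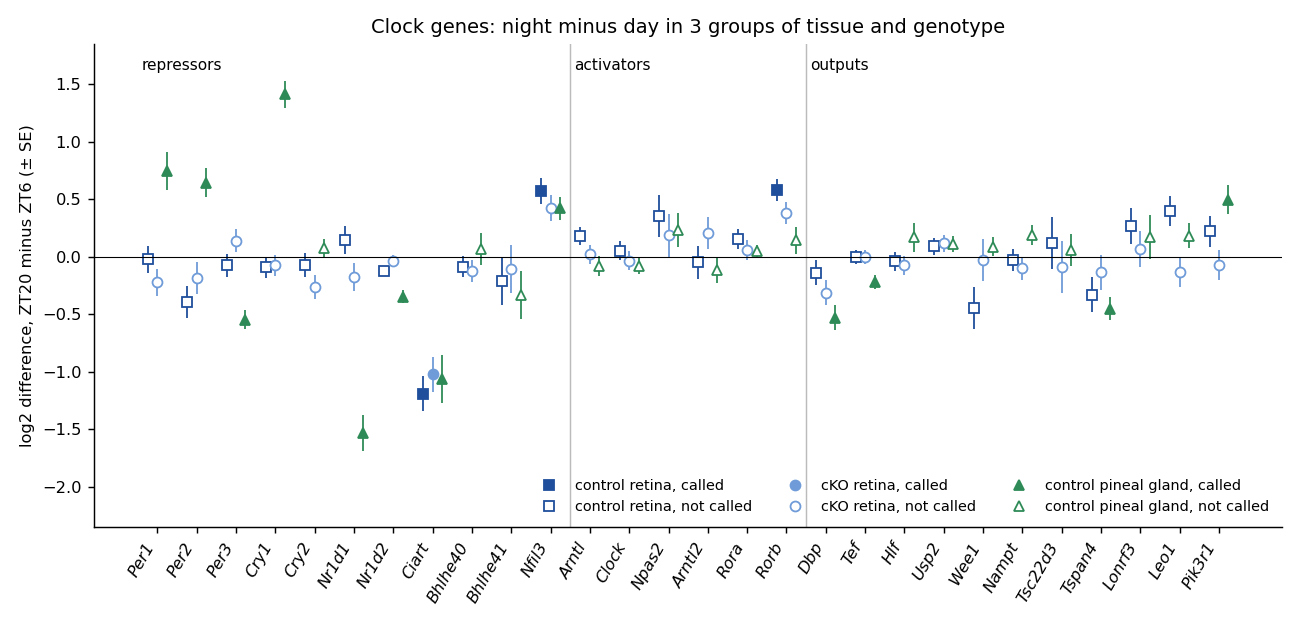
Log2 difference, ZT20 minus ZT6, with its SE, of 28 clock genes in control retina (squares), cKO retina (circles) and control pineal gland (triangles); filled symbols were called. In control retina Ciart lies at -1.19, Nfil3 at 0.57 and Rorb at 0.58, and all other squares lie between -0.44 and 0.40, whereas Cry1 and Nr1d1 of the pineal gland lie at 1.41 and -1.53.

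The dopamine receptor genes Drd4 and Drd2 rose at night. Of 7 tested genes of melatonin, dopamine and adenosine signalling, 2 were called higher, beside 0.701% of all genes, and 0 lower. The median was 0.20, but 0.12 without ZT6 pool 1, 0.39 without ZT6 pool 3, 0.33 without ZT20 pool 2 and 0.31 without ZT20 pool 3. Drd4, the receptor through which dopamine lowers cAMP in photoreceptors, rose from 1481, 986.9 and 1286 to 2929, 2598 and 3701. That is 1251 ± 249 against 3076 ± 566 (SD, n = 3), a difference of 1.29 ± 0.19 (adjusted p = 0.0079), and the further probe set gave 1.30. All 3 night pools were far above the day pools, and Drd4 passed under every other setting, with adjusted p-values of up to 0.049. Drd2, the receptor of the same class on dopaminergic amacrine cells, rose from 873.5, 728.4 and 769.7 to 1346, 1087 and 1186 (0.60 ± 0.13, adjusted p = 0.047). It passed in none of the 6 fits that left out a control pool, with adjusted p-values of up to 0.16. Drd1 had 1604, 1532 and 1700 against 1888, 2129 and 2188 without passing (adjusted p = 0.11). Among 20 tested genes of the cAMP second messenger list 0 were called, with Prkacb at 0.12 and Prkar1a at -0.17. Mtnr1a, a melatonin receptor gene, and Th, the rate-limiting enzyme of dopamine synthesis, were too dim to be tested.

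Immediate-early genes are induced by cAMP, calcium and growth factors within minutes. Of 19 tested, only Nr4a1 was called, beside 1.25% of all genes tested. This orphan nuclear receptor gene rose from 276.9, 291.4 and 307.3 to 768.5, 554.7 and 547.0 (1.04 ± 0.18, adjusted p = 0.020), and its call was lost in 4 of the 6 fits that left out a control pool (adjusted p up to 0.087). Fos was 953.5, 1942 and 1962 against 2906, 2613 and 2692 without passing (0.82, adjusted p = 0.074), and Egr3 was 81.8, 70.7 and 78.3 against 36.4, 24.3 and 46.1 (-0.87, adjusted p = 0.065). The list had 12 positive signs of 19, beside 52.1% of all genes tested. Its median was 0.07. That median was -0.05 without ZT6 pool 1, 0.22 without ZT6 pool 3, 0.15 without ZT20 pool 1 and 0.11 without ZT20 pool 2.

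In the photoreceptor lists a few genes rose and most did not pass. Of 18 tested genes of the rod cascade, 2 were called higher, beside 0.701% of all genes. The median was 0.13, or 0.08 without ZT6 pool 3. Night pools lay wholly above the day pools for 7 of the 18 and wholly below for 2. Over all 11693 genes tested these numbers were 1339 (11.5%) and 1102. Pde6a, a catalytic subunit of the rod phosphodiesterase, rose from 1151, 1156 and 1469 to 1648, 1867 and 1909 (0.52 ± 0.11, adjusted p = 0.042). Rcvrn, the calcium sensor recoverin, rose from 9027, 9326 and 9108 to 10169, 10604 and 11045, a small difference with little spread (0.21 ± 0.04, adjusted p = 0.032). Each passed in 1 of the 6 fits that left out a control pool, with adjusted p-values of up to 0.15 and 0.12. Gnat1 and Sag, at the top of the signal scale, showed 0.04 and -0.02. Gnat1 had 13746 in every ZT20 pool and in ZT6 pool 1, a value tied by quantile normalisation, so its difference says little. Of 11 cone genes 0 were called in limma, with Ccdc136 at 0.09 and Gnb3 at 0.03. Night pools lay wholly above the day pools for 3 of them and wholly below for 0. The short-wave opsin gene Opn1sw was 4102, 3677 and 3712 against 4669, 4606 and 4240 (adjusted p = 0.14). Among 13 photoreceptor transcription factors Rorb was the sole call. Of 12 outer segment genes Impg1 alone was called, and of 17 ribbon synapse genes Elfn1 alone. Night pools lay wholly above the day pools for 7 of the 13 factors and wholly below for 0. For the outer segment genes these numbers were 3 and 1, and for the ribbon synapse genes 6 and 1. Elfn1, a postsynaptic organiser of glutamate receptors and a transmembrane protein of photoreceptor terminals, rose from 1087, 1266 and 914.9 to 1604, 1734 and 1862 (0.67 ± 0.15, adjusted p = 0.042). It passed in none of the 6 fits that left out a control pool (adjusted p up to 0.15).

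Aqp4, the water channel gene of glial endfeet, rose as Aqp1 did. Of 18 tested genes of Mueller glia, the radial glia that carry water and potassium out of the retina, Aqp4 was the sole call. Over all genes tested, 1.25% were called. The median of the list was 0.06, with a range from -0.01 without ZT6 pool 2 to 0.14 without ZT6 pool 3. Aqp4 rose from 3800, 3421 and 3898 to 5230, 5324 and 5211 (0.50 ± 0.06, adjusted p = 0.0019), with a further probe set at 0.49, and passed under every other setting. The night pools differed by little from one another and lay well above the day pools. The glial enzyme gene Glul showed -0.04 and the retinal carrier gene Rlbp1 0.03, neither passing.

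Hspa5 rose among genes of protein folding in the endoplasmic reticulum. Of 18 tested genes of the unfolded protein response 1 was called, Hspa5, while 16 had a positive sign, 8 genes of the list had night pools wholly above the day pools, and the median was 0.24. Over all genes tested, 0.701% were called higher, 52.1% had a positive sign and 11.5% had night pools wholly above the day pools. Hspa5, the main chaperone of the endoplasmic reticulum (BiP), rose from 3991, 3450 and 4600 to 5498, 5454 and 5749 (0.48 ± 0.09, adjusted p = 0.032), and its further probe set gave 0.53. It passed in 1 of the 6 fits that left out a control pool, with adjusted p-values of up to 0.12. Xbp1, a transcription factor of that response, was 1599, 1160 and 1267 against 2226, 1915 and 1877 (0.58, adjusted p = 0.056). The promoter of Hspa5 is shown for its ER stress element, CCAAT and CCACG at a fixed distance, a motif added after the values were seen, which 15 of 12258 promoters of tested genes held (0.122%). An interferon-stimulated element and a heat shock element were searched too, and the promoters of Irf7 and Hspa1a held neither. Capitals mark the ER stress element, which begins 65 bases before the start in chr2:34771840-34772089 (GRCm38.p6, plus strand).
Hspa5: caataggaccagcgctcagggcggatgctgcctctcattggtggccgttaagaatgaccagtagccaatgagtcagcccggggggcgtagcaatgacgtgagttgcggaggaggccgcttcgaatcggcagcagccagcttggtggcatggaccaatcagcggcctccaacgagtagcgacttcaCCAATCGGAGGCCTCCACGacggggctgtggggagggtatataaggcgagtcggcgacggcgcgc

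Of 17 tested genes that respond to heat or cold, 1 was called higher and 1 lower, beside 0.701% and 0.547% of all genes. The median was 0.15. Night pools lay wholly above the day pools for 9 and wholly below for 2, beside 1339 and 1102 of all 11693 genes. Hspa1a, an inducible heat shock protein gene, rose from 267.7, 251.6 and 263.2 to 398.6, 420.2 and 490.7 (0.70 ± 0.15, adjusted p = 0.042). Cirbp, the cold-inducible RNA-binding protein gene, fell from 3052, 2861 and 2911 to 2043, 2228 and 2187 (-0.45 ± 0.09, adjusted p = 0.034). In both genes the times were clearly apart, yet neither passed in any of the 6 fits that left out a control pool, with adjusted p-values of up to 0.16 and 0.13. Hspa8 and Hsph1 had 0.19 and 0.23 without passing. The members of the list ranged from -1.24, in a gene that did not pass, to 0.70.

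Genes of glucose metabolism had mostly positive signs without a call. Of 26 tested, 0 were called in limma, 23 had a positive sign and 10 had night pools wholly above the day pools, beside 52.1% and 11.5% of all genes tested. The median was 0.11. Aldoa and Pkm, the brightest, showed 0.00 and 0.09. Of 19 tested genes of oxidative phosphorylation 0 were called, 13 had a positive sign and the median was 0.03 (-0.01 without ZT20 pool 1 and 0.09 without ZT20 pool 2), with Uqcrb at 0.00 and Atp5a1 at 0.13.

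Dio2, the deiodinase that converts thyroxine into active thyroid hormone, fell at night. This gene was the sole call among 10 tested growth factor and thyroid genes, beside 1.25% of all genes. It was 1758, 2161 and 2255 at ZT6 and 884.7, 971.1 and 844.2 at ZT20 (2058 ± 264 against 900 ± 64.9, SD, n = 3). The difference was -1.17 ± 0.11 (adjusted p = 3.7e-04), and the further probe set gave -1.05. It passed under every other setting. Its promoter is shown because this gene moved the opposite way in the pineal gland and its window holds a full cAMP response element, TGACGTCA. Capitals mark it, beginning 95 bases before the start in chr12:90739039-90739288 (GRCm38.p6, minus strand).
Dio2: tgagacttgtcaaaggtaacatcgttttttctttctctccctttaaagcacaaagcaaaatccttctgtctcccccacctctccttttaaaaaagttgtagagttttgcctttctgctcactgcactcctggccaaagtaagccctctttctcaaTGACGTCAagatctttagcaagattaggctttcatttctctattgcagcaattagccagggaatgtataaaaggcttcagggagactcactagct

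The shares of promoters with a motif are given as a description. RefSeq promoters matched 69 of the 82 genes that rose (80 promoters), 53 of the 64 that fell (63 promoters) and 9481 of the genes tested (12258 promoters). The E-box CACGTG was present in 11.2% of the first, 12.7% of the second and 8.08% of the third group, and in 8 of 35 promoters of the clock lists (22.9%). The RORE core TAGGTCA was present in 3.75%, 1.59% and 1.55%, and the cAMP response element TGACGTCA in 1.25%, 1.59% and 2.55%. The D-box, TTATGTAA or TTACGTAA, was found in 0 promoters of called genes and in 0.661% of those of tested genes. The interferon-stimulated element was present in 1.25% of promoters of genes that rose, 0% of those that fell and 2.34% of those tested. For the heat shock element these shares were 0%, 0% and 0.383%, and for the ER stress element 1.25%, 0% and 0.122%. Both strands were searched in 250 bases before each start, and a match is a description of letters, not a site.

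The remaining lists held no called gene in limma. Neurons of the inner retina gave Isl1 -0.06 and Prkca 0.12 among 14 bipolar genes, Slc6a9 0.00 and Gad1 0.07 among 13 amacrine and horizontal genes, and Nefl 0.06 and Sncg -0.20 among 12 ganglion cell genes. Other cells of the dissected eye gave Ttr 0.22 and Rgr 0.06 among 16 pigment genes, Ctss -0.03 and Csf1r 0.19 among 10 microglial genes, Rgs5 0.15 and Kdr 0.15 among the vessel genes, and Hba-a2 0.01 and Hbb-b2 -0.55 for blood. The lens genes Cryab and Cryba1 showed -0.33 and -0.40. Lipid synthesis gave Insig1 -0.13 and Hmgcs1 -0.21 among 26 genes, and the glucocorticoid-responsive list Sgk1 -0.01 and Klf9 0.23 among 14. Channels (Kcnj14 0.08, Trpc1 -0.28, 16 tested), G protein regulators (Gng13 0.07, Gnas 0.19, 21 tested), autophagy genes (Gabarapl1 0.08, Ctsb 0.22, 17 tested) and ribosomal protein genes (Rpl4 0.10, Rpl19 0.11, 12 tested) completed the lists.

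**Figure D4:**
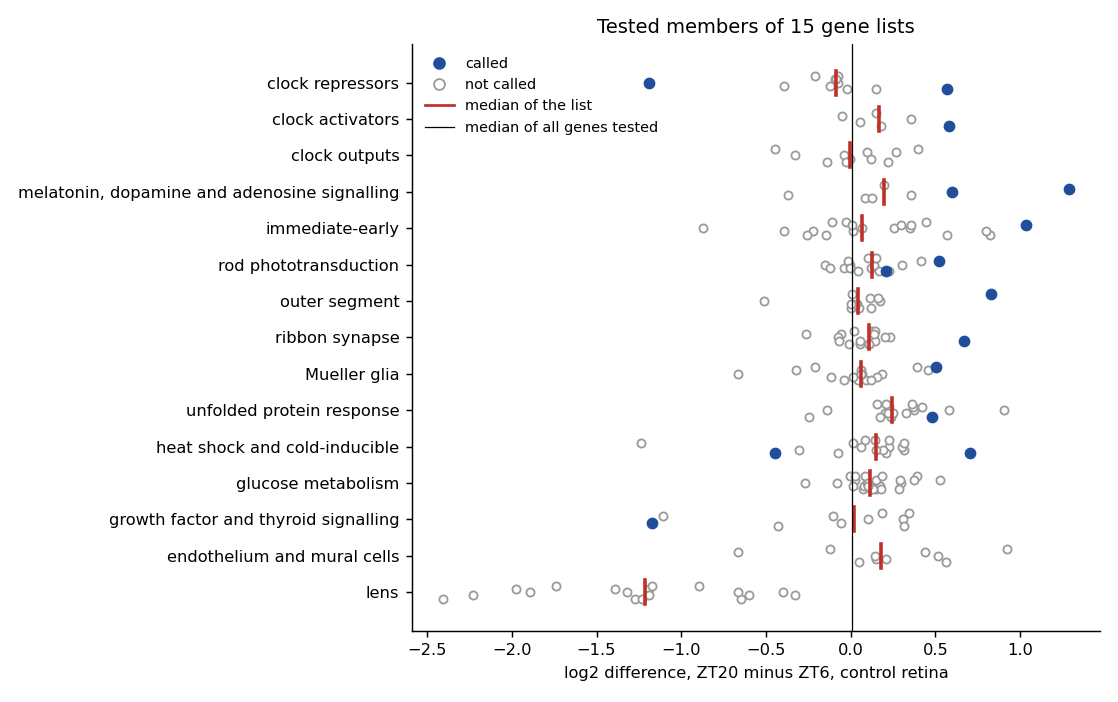
Log2 difference, ZT20 minus ZT6, of the tested members of 15 gene lists in control retina, with called genes filled, list medians as red bars and the median of all genes (0.01) as the thin line. The called members number 15 in all, at most 2 in a list, while the lens list as a whole lies below 0 with a median of -1.21 and no call.

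The cKO retina was set beside the control retina gene by gene. In cKO retina 38 genes were called between ZT20 and ZT6 (0.325%), 15 higher and 23 lower. The libraries labelled cKO ZT20 pools 2 and 3, which held Neurod1 at 3672 and 3341, enter that count, and without them 11 genes were called, 5 of them among the 38. Of the 38, 18 were also called in the control retina in the same direction, 12.3% of the control calls and 47.4% of the cKO calls, and 0 in the opposite one. Among the shared rises were those of Irf7 (1.71 in cKO), Pgbd1 (2.05), Nr4a1 (1.32) and Aqp1 (0.66). Among the shared falls were those of Glmn (-1.18), Crh (-1.06), Ciart (-1.02), Col19a1 (-1.46), Taf4b (-0.95) and Cirbp (-0.59). Over the 82 genes that rose in control retina the median was 0.57 in control and 0.16 in cKO, and over the 64 that fell it was -0.55 and -0.19. These genes were chosen for their difference in the control, so a smaller median elsewhere is not a result. The difference between the genotypes was tested directly and 0 of 11693 genes passed in limma (0%), with 941 at an unadjusted p under 0.05. Drd4 was 0.49 in cKO against 1.29 (adjusted p of the difference 0.52) and Impg1 0.26 against 0.83 (0.49).

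Dio2 had the lowest adjusted p of the genotype difference. Its mean stayed at 1339 ± 146 at ZT6 and 1279 ± 33.4 at ZT20 in cKO retina (SD, n = 3), a difference of -0.06, and the cKO minus control difference was 1.11 (adjusted p = 0.075). It passed with trimmed-mean scaling (adjusted p = 0.029), with robust variances (0.036) and without control ZT6 pool 1 (0.030). In no other setting did the genotype difference of Dio2 pass, also not without cKO ZT20 pools 2 and 3. Without cKO ZT20 pools 2 and 3, which stood apart, 158 genes were called in control retina, 122 of them among the 146.

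In the control pineal gland the same comparison called many more genes. There 3099 of 11936 genes were called (26%), 1483 higher (12.4%) and 1616 lower (13.5%). Of 128 genes called in the retina and tested in both tissues, 69 were called in the gland in the same direction (53.9% of them, and 2.42% of the 2853 gland calls tested in both tissues) and 4 in the opposite one, namely Dio2, Nap1l5, Mtx3 and Cdk2ap2. Pgbd1 rose in both, by 1.60 in retina and 2.65 in the gland, and so did Drd4 (1.29 and 1.41) and Nr4a1 (1.04 and 1.43), and Ciart fell in both (-1.19 and -1.06). Of the strongest night genes of the gland, a list taken from earlier results of these data, 7 of 10 were tested in the retina. Only Pgbd1 was called there, beside 1.25% of all genes tested in the retina.

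A test of the tissue difference in the night effect passed for 612 of 12866 genes (4.76%), 293 with a higher difference in the retina (2.28%) and 319 with a lower one (2.48%). It passed for 30 of the 146 genes called in the retina, beside the 4.76% of all genes. Cry1 rose by 1.41 there and showed -0.09 in the retina (retina minus gland -1.51, adjusted p = 2.7e-06), and Nr1d1 fell by 1.53 against 0.15 (1.68, adjusted p = 4.4e-05). Per2 rose in the gland by 0.64 (-1.03, adjusted p = 0.0022) and Per1 by 0.75 (-0.77, adjusted p = 0.037), while Per3 fell by 0.55 (0.47, adjusted p = 0.045). Dio2 rose by 1.35 in the gland and fell by 1.17 in the retina (-2.52, adjusted p = 1.6e-04). Irf7, which showed 0.54 in the gland, differed too (1.58, adjusted p = 0.0079), Impg1 and Aqp4 showed -0.14 and -0.05 in the gland (0.97 and 0.56, adjusted p = 0.016 and 0.013), and Crh and Stxbp2 also differed (-1.75 and -0.98, adjusted p = 0.0015 and 0.011). Crh was too dim in the gland to be tested within it.

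**Figure D5:**
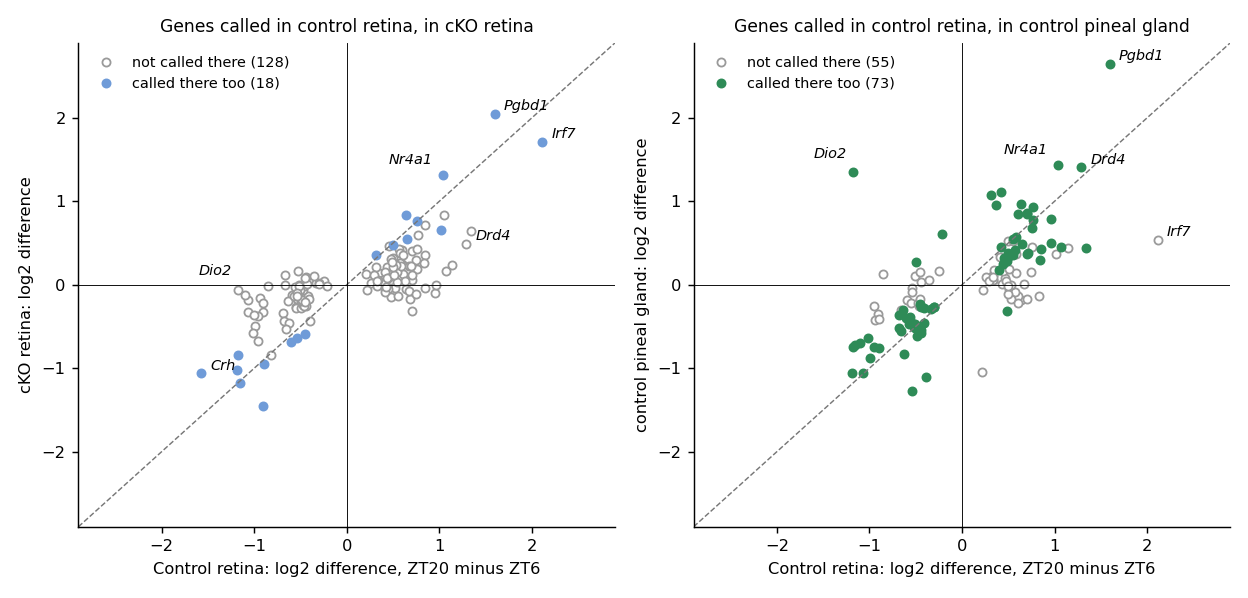
Log2 difference, ZT20 minus ZT6, of genes called in control retina (horizontal axis) against that in cKO retina (left, 146 genes) and in control pineal gland (right, 128 genes tested there); filled points were called in that group too, and the dashed line marks equality. Irf7, Pgbd1 and Nr4a1 lie near or above the line in cKO retina, and Dio2 lies in the opposite quadrant in the pineal gland, at -1.17 and 1.35.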

How the data were processed

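Affymetrix Mouse Genome 430 2.0 arrays were hybridised, per the labels' protocols, with RNA of pooled tissue amplified with a NuGEN Ovation kit. The authors deposited 1 signal intensity per probe set and array on a linear scale; per the submitters' processing notes GCOS was used, with no word on its scaling. Of 45101 probe sets, 34945 carried 1 gene symbol in the platform annotation (18193 genes), 932 several, 9211 none and 64 were controls; 34741 were matched to RefSeq by gene identifier.

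Intensities were turned into log2(signal + 16) and quantile normalised over the 12 retina arrays. Each gene was represented by its probe set of highest mean over the 24 arrays, sets ending in _x_at only where it had no other. Genes above the array median on at least 3 of 12 retina arrays were tested with limma 3.58.1 in R 4.3.3 (4 group means, eBayes with trend, 8 residual and 5.4 prior degrees of freedom), with Benjamini-Hochberg adjustment over all genes tested within each of 5 comparisons and a threshold of 0.05. Printed signals are the normalised values back on the linear scale. The genotype difference came from the same fit, the pineal gland had a fit of its own 12 arrays, and the tissue difference a fit of all 24 arrays in 8 groups, normalised within each tissue. An exact permutation test of 3 against 3 pools cannot go below 0.1. The code was tested on simulated data.

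Named genes were the members of the clock lists, the 15 largest rises and falls that passed with pools that did not overlap, up to 4 called genes of each other list or the 2 brightest where none passed, the 10 largest tissue differences each way, and Neurod1. Clones, predicted genes and sex-linked genes were passed over. Cell markers in the opening, and Vwf, Drd1, Fos, Egr3, Xbp1, Hspa8, Hsph1, Glul, Rlbp1, Gnat1, Sag and Klf9, were named after their values were seen. The comparison and the lists were chosen with earlier results of these data known. No 2 arrays shared over 0.494% of their values. The alternatives were other normalisations, pseudocounts, filters, probe sets, variance models, sets of arrays in the fit, the pool number as a block, and each pool left out. Same-numbered ZT6 and ZT20 pools deviated together with r = 0.09, 0.40 and -0.16, so the numbers were not taken to pair them.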

Additional observations from a re-analysis of the deposited data

Results flagged for a closer look

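Each value here is the night effect in control retina minus that in control pineal gland on the log2 scale, from a limma fit that tested this difference, and each gene is listed because the tested difference passed (adjusted p of 0.041 or lower). Beside the retina calls, the difference was 1.58 for Irf7, -1.05 for Pgbd1, 0.97 for Impg1, -1.75 for Crh, -2.52 for Dio2, -0.98 for Stxbp2 and 0.56 for Aqp4. Pgbd1 rose in both tissues, by 1.60 in the retina and 2.65 in the gland.

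The 10 most negative differences include Dio2, above, and genes that rose in the gland. Gng4, a G protein gamma subunit, rose there by 4.33 and showed -0.25 in the retina (difference -4.59). Tunar differed by -3.70, Cpm by -3.69, Gulo by -2.79, Stc2 by -2.73 and Kcnc1, a potassium channel gene, by -2.66. None of these 5 was called in the retina, where they showed 0.09 to 0.26. E2f8 (-4.10), Mctp2 (-3.31) and Aanat, the rhythmic enzyme of melatonin synthesis (-3.26), were too dim to be tested within the retina.

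The 10 most positive differences belong mostly to genes that fell in the gland. They were 2.08 for Clca1, 1.87 for Cntn4, 1.80 for Opn1sw, 1.75 for Nrxn3, 1.71 for Syndig1l, 1.68 for Nr1d1 and 1.66 for Dpp10. These 7 fell in the gland by 1.51 to 2.23 and were not called in the retina. Kif26b (1.97) and Rln1 (1.87) were too dim to be tested within the retina. Sema5b (2.10) showed 0.94 in the retina without passing (adjusted p = 0.18) and was too dim to be tested within the gland.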

How the results depend on the processing

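All 146 control retina differences kept their sign in every alternative that tested the gene, while the calls depended on the scaling and on single pools. Of 146 calls, 11 passed every alternative that tested them. The count was 16 on the values as deposited (15 of them among the 146), 93 with median centring (80 shared), 61 with quantile normalisation and fit on the 6 control arrays (47 shared) and 61 with the fit alone on those 6 (47 shared). It was 18 to 181 without 1 control pool. With the pool number as a replicate block it was 45, all shared, or 38 in the 6 control arrays (29 shared); 1 of 3 ZT20 pools correlated best with its own number. The count stayed within 1.5 times of 146 for the other settings, at 102 to 210. In cKO retina 38 calls became 6 as deposited, 25 with the replicate block, 13 to 35 without 1 pool and 11 without both cKO ZT20 pools 2 and 3 (5 shared), a setting chosen after seeing the data. The genotype difference, with 0 calls, had 2 with trimmed-mean scaling and 2 with robust variances (Dio2 and Ly75 in both), 2 without those pools (Acta1 and Tnnc1), and 0 to 1 without 1 pool. These genes were named after their values were seen. The tissue difference (612) gave 137 as deposited, 290 with median centring and 354 to 795 without 1 pool. Under the same settings control pineal ZT20 against ZT6 (3099) gave 1019, 1837 and 1925 to 3007. The cause of these changes was not tested. With 3 pools a group, their number limits the precision.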

Other observations

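Further genes called between night and day in control retina were named after their values were seen, and they are given as values. Sik2, a salt-inducible kinase gene, was 3187, 3539 and 3266 at ZT6 and 5313, 6110 and 5498 at ZT20 (difference 0.76 ± 0.09 SE, limma adjusted p = 0.0019). It rose by 0.77 in cKO retina too (adjusted p = 0.0038). Rpn1, a subunit of the oligosaccharyltransferase that glycosylates proteins in the endoplasmic reticulum, was 1036, 874.8 and 841.9 against 1453, 1572 and 1470 (0.70 ± 0.10, adjusted p = 0.0079). Its further probe sets gave smaller rises of 0.25, 0.26, 0.35 and 0.43, with limma adjusted p-values over all probe sets of 0.064 to 0.2. Stt3b, a catalytic subunit of that complex, rose by 0.29 (adjusted p = 0.047), and its further probe set gave 0.17. Sik2 and Rpn1 also passed in all 6 fits that left out a control pool, and Stt3b in 1 of them. Bcl2, an inhibitor of apoptosis, rose by 0.65 (adjusted p = 0.0092).

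Tac1, the substance P precursor gene of amacrine cells, fell from 3837, 3612 and 3952 to 2711, 2809 and 2947 (-0.43 ± 0.07, adjusted p = 0.020). Slc32a1, the vesicular transporter of GABA and glycine, rose from 704.1, 546.9 and 761.8 to 1089, 1087 and 1062 (0.69, adjusted p = 0.040), and Slc12a5, the neuronal chloride extruder KCC2, by 0.22 (adjusted p = 0.042). The further probe set of Slc32a1 gave 0.30 and that of Slc12a5 gave 0.23. Tshr, the thyrotropin receptor gene, rose from 203.2, 220.8 and 311.9 to 399.4, 413.4 and 440.2 (0.75, adjusted p = 0.032). In each of Tac1, Slc32a1 and Tshr the times did not overlap. These 4 genes passed in at most 2 of the 6 fits that left out a control pool, with adjusted p-values of up to 0.12.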
